A study of Mus musculus with 12 samples.

Results

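Photo-isolation chemistry was used here to set the transcriptome of hippocampal CA3 against that of the dentate gyrus (DG) in fresh-frozen mouse brain sections permeabilized with HCl. The comparison took the 4 CA3 and the 4 DG replicates of this condition, which are 8 of the 48 replicates and 2 of the 12 samples of the series, chosen by region, section type and permeabilization alone. All sections came from male ICR mice aged 8 weeks. The 8 replicates came from unfixed frozen tissue that received 5% Triton X-100 for 3 min and then 0.1 N HCl for 5 min. CA1 replicates of the same treatment are given beside some values. Other sections were permeabilized in TE buffer at 70 °C for 1 h and were fresh-frozen or, after fixation in 4% PFA, frozen or embedded in paraffin. In photo-isolation chemistry, primers for reverse transcription carry a caging group, and only cDNA in a region outlined and irradiated under the microscope can be amplified by the CEL-seq2 method. The values are UMI counts, that is, numbers of different molecular tags per gene and replicate. Each sample was 1 library that pooled 4 replicates with different barcodes, so that library and region cannot be told apart. The sources used here do not say which mouse gave which replicate, and p-values measure only the spread between these replicates. The sample titles name the second region CA3 where the description of the series writes CA2, and the titles were followed.

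Granule cells, the principal neurons of DG, are small, densely packed and born in part in adult life, and they send thin unmyelinated axons called mossy fibres to CA3. CA3 pyramidal neurons are larger, receive mossy fibres on their proximal dendrites, excite one another through recurrent axons and project to CA1. An outlined region holds glia, vessels, interneurons and passing axons as well, and in such bulk samples fewer cells of a type and less RNA per cell cannot be told apart.

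The replicates held between 731221 and 933756 UMIs in CA3 and between 238861 and 787907 in DG, where replicates 4 and 1 were the shallowest. The mean total was 1.68 times higher in CA3 (exact permutation test, two-sided p = 0.0571, where 0.0286 is the smallest p that 4 against 4 allow). Between 17869 and 18864 genes were detected with at least 1 UMI in CA3 and between 13848 and 17950 in DG. After thinning to one total the ratio of detected genes was 1.02 (exact permutation p = 0.171). A count of 3 UMIs, the limit that a count of 0 allows, corresponds to 3.21 to 4.10 counts per 1e6 UMIs (CPM) in a CA3 replicate and to 3.81 to 12.56 CPM in a DG replicate, for counting error only.

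Of 15161 genes with at least 10 UMIs over the 8 replicates, 1363 (8.99%) differed between the regions in edgeR's quasi-likelihood test at a Benjamini-Hochberg adjusted p under 0.05. They were split between 676 higher in CA3 (4.46%) and 687 higher in DG (4.53%). Fold changes are given as log2 of CA3 over DG, and the median over all genes tested was 0.02. The standard error (SE) beside them was computed as the absolute log2 fold change divided by the square root of edgeR's F statistic. A change of at least 2-fold, or 1 on the log2 scale, was seen for 326 of the genes higher in CA3 and 400 of those higher in DG. The share called was 1.75% among genes with a mean of 1 to 5 UMIs per replicate and 26.8% among genes with at least 100. With the replicate number as a block 2619 genes (17.3%) were called, 1353 higher in CA3 (8.92%) and 1266 higher in DG (8.35%), among them 1362 of the 1363. Without DG replicates 4 and 1, 1120 genes were called. Of 1122 genes annotated as to be experimentally tested, 72 were higher in DG and 12 higher in CA3. Of 1079 long noncoding RNA genes, 46 were higher in DG and 14 higher in CA3.

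**Figure D1:**
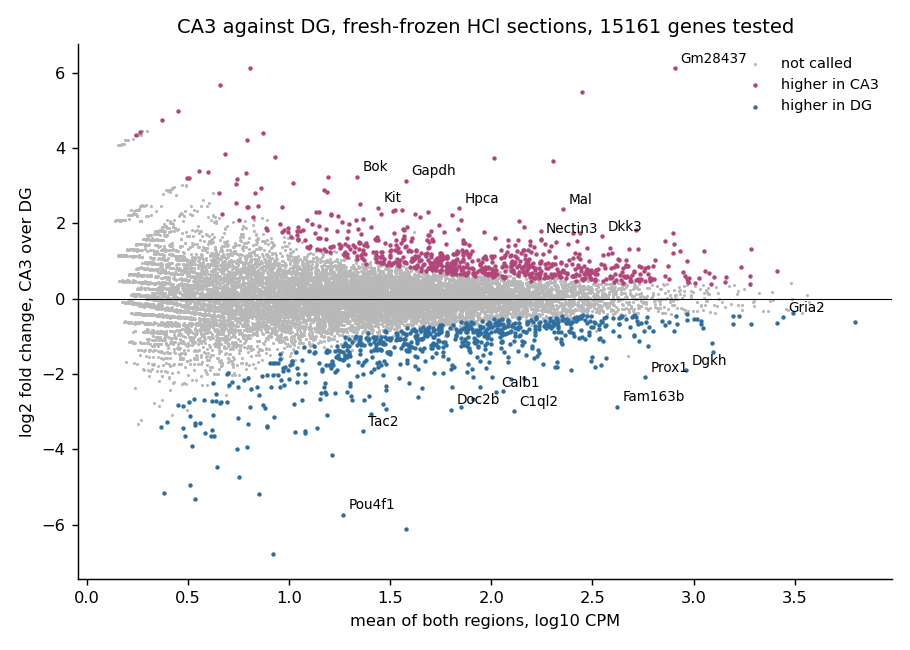
Log2 fold change of CA3 over DG (vertical axis) against the mean level of both regions in log10 CPM (horizontal axis), 1 point per gene for the 15161 genes tested, with the 676 genes called higher in CA3 and the 687 called higher in DG in colour. The oligodendrocyte gene Mal lies above 0 with Dkk3, while Prox1, C1ql2 and Fam163b lie below.

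The labels were checked with Prox1 for DG and with Dkk3, which the paper names as a marker of both CA1 and CA3, for CA3. Prox1, the homeodomain factor of granule cell identity (chromosome 1, 190118035 to 190170714, minus strand, GRCm38), was at 206, 346, 190 and 118 CPM in CA3 replicates 1 to 4 and at 693, 1047, 908 and 1101 CPM in DG replicates 1 to 4. Dkk3, a secreted glycoprotein of pyramidal neurons (chromosome 7, 112116017 to 112159057, minus strand), was at 531, 539, 541 and 518 CPM in CA3 and at 253, 143, 165 and 121 CPM in DG. The replicates of both regions stood apart for either gene, with log2 fold changes of -2.09 ± 0.21 (SE) for Prox1 and 1.67 ± 0.17 for Dkk3 (adjusted p = 3.01e-07 and 3.25e-07). Both genes were therefore on the side of their label in 8 of 8 replicates. As Dkk3 is shared by CA fields, this check sets CA3 apart from DG and not from the other CA fields.

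Genes of granule cells were mostly higher in DG. Of 20 granule cell markers, 17 were higher in DG, 0 were higher in CA3 and 3 were not called, with a median log2 fold change of -1.85. C1ql2, a secreted synaptic organizer of mossy fibre boutons, was at 37.5, 42.8, 18.5 and 10.9 CPM in CA3 and at 190, 242, 223 and 268 CPM in DG. Calb1, the calcium buffer calbindin, was at 27.9, 61.0, 19.8 and 15.0 CPM in CA3 and at 142, 219, 188 and 167 CPM in DG. Dsp, the desmosomal protein desmoplakin, was at 25.7, 36.4, 19.8 and 5.47 CPM in CA3 and at 111, 180, 167 and 100.5 CPM in DG. No CA3 replicate reached the lowest DG replicate for these 3 genes, and the log2 fold changes were -2.99 ± 0.25 for C1ql2, -2.49 ± 0.27 for Calb1 and -2.65 ± 0.29 for Dsp (adjusted p = 1.50e-08, 8.60e-07 and 9.68e-07). The same direction was called for Pdzd2 (-2.44 ± 0.21, adjusted p = 2.82e-08), Dgkh, a diacylglycerol kinase (-1.90 ± 0.19, adjusted p = 3.01e-07), and Bcl11b, a zinc finger factor (-1.58 ± 0.19, adjusted p = 3.91e-06). Glis3 was called at an adjusted p of 0.0484 and was no longer called without CA3 replicate 2, 3 or 4 or without DG replicate 2, 3 or 4 (adjusted p = 0.0686 to 0.221). Of the 3 not called, Trpc6 and Rasl10a were at -0.75 and -0.53, and Il16 was at 1.08 (adjusted p = 0.0718, or 0.036 with the replicate block). In CA1 of the same condition the markers summed to between 1210 and 1751 CPM, against 893 to 1924 CPM in CA3 and 3886 to 5511 CPM in DG.

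Beyond the markers, Fam163b had the smallest adjusted p among genes higher in DG. It was at 89.0, 151, 85.2 and 67.0 CPM in CA3 and at 724, 872, 623 and 724 CPM in DG, a log2 fold change of -2.87 ± 0.19 (adjusted p = 1.88e-10). The lowest DG replicate lay above 4 times the highest CA3 replicate. Lgr6, a receptor for R-spondins, differed by -2.87 ± 0.31 and Plk5, a polo-like kinase, by -2.94 ± 0.40 (adjusted p = 8.60e-07 and 1.72e-05). Among genes whose replicates did not overlap, the 5 with the largest differences in CPM towards DG were Syt7, a calcium sensor of vesicles (1995 CPM in CA3 and 3158 CPM in DG), Adcy1, a calcium-stimulated adenylyl cyclase (668 and 1812 CPM), Dgkh (380 and 1452 CPM), Gria2, an AMPA receptor subunit (2269 and 3238 CPM), and Rasgrf1, an exchange factor for Ras (748 and 1715 CPM). Their log2 fold changes ran from -0.48 for Gria2 to -1.90 for Dgkh. Gria2 was not called without CA3 replicate 2, CA3 replicate 4 or DG replicate 4 (adjusted p = 0.0507 to 0.0661), while Syt7, Adcy1 and Rasgrf1 were called without any 1 replicate.

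On the CA3 side, 6 of 12 CA3 pyramidal markers were higher in CA3 and 0 were higher in DG, with a median of 0.96. Bok, a relative of the BCL2 proteins, was at 39.7, 38.6, 33.3 and 42.4 CPM in CA3 and at 5.68, 1.55, 3.81 and 8.37 CPM in DG. Nectin3, an adhesion molecule that sits on the dendritic side of mossy fibre contacts, was at 238, 240, 320 and 252 CPM in CA3 and at 105, 74.5, 97.7 and 75.4 CPM in DG. Grik4, a kainate receptor subunit, was at 99.7, 104, 81.5 and 131 CPM in CA3 and at 45.4, 40.3, 40.6 and 54.4 CPM in DG. The regions did not overlap for Bok, Nectin3 and Grik4, which were 3.24 ± 0.40, 1.59 ± 0.17 and 1.27 ± 0.21 higher in CA3 (adjusted p = 4.41e-06, 8.60e-07 and 2.41e-04). Socs2, Cpne4 and Nrip3 were called with 1.27, 1.11 and 0.81. The other 6 markers were not called. They included Cdh24 (1.70 ± 0.58, adjusted p = 0.068), which was called with the replicate block (adjusted p = 0.0041) and without DG replicate 1, the 1 DG replicate in which its level overlapped CA3. Iyd, Coch, St18 and Plagl1 were below 0 and Mas1 was at 0.27, with 1.07 to 11.8 CPM for Iyd and Coch in every CA3 replicate.

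Of 6 genes shared by CA pyramidal neurons, 5 were higher in CA3 with a median of 1.24 over the 6. They were Dkk3, Chgb, a granin of dense core vesicles (1.26 ± 0.20), Neurod6, a bHLH factor (1.25 ± 0.21), Spock1, a proteoglycan (1.22 ± 0.19), and Nptxr, the neuronal pentraxin receptor (0.86 ± 0.15), with adjusted p-values between 3.25e-07 and 4.19e-04. Ociad2 was at 0.59 ± 0.20 (adjusted p = 0.068) and was called with the replicate block (adjusted p = 4.65e-04) and without DG replicate 1, which was at 173 CPM against 87.9 to 93.9 CPM in the other 3 DG replicates. Kit, the receptor for stem cell factor, was at 47.2, 35.3, 48.2 and 57.4 CPM in CA3 and at 8.52, 6.20, 12.7 and 4.19 CPM in DG. Hpca, the calcium sensor hippocalcin, was at 80.4, 203.5, 123.5 and 61.5 CPM in CA3 and at 19.9, 35.7, 15.2 and 16.7 CPM in DG. Neither gene overlapped between the regions, and the log2 fold changes were 2.42 ± 0.33 and 2.40 ± 0.35 (adjusted p = 2.30e-05 and 4.52e-05).

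In the lists of the neighbouring fields CA1 and CA2, 1 of 8 markers each was called, where 8.99% of all genes tested were called. Of 8 CA1 markers tested, Man1a alone was called, higher in CA3 (0.85 ± 0.27, adjusted p = 0.0427), and it was not called without CA3 replicate 1, 2 or 3 or DG replicate 2, 3 or 4 (adjusted p = 0.0552 to 0.174). Wfs1, a CA1 marker of the endoplasmic reticulum, was at 31.5 to 80.3 CPM in CA3 and at 25.1 to 145 CPM in DG (-0.74 ± 0.32, adjusted p = 0.179, or 0.002 with the replicate block). Of 8 CA2 markers tested, Pcp4 alone was called, higher in DG (-0.74 ± 0.17, adjusted p = 0.0043). Without the 2 shallowest DG replicates Pcp4 was not called (adjusted p = 0.0739).

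**Figure D2:**
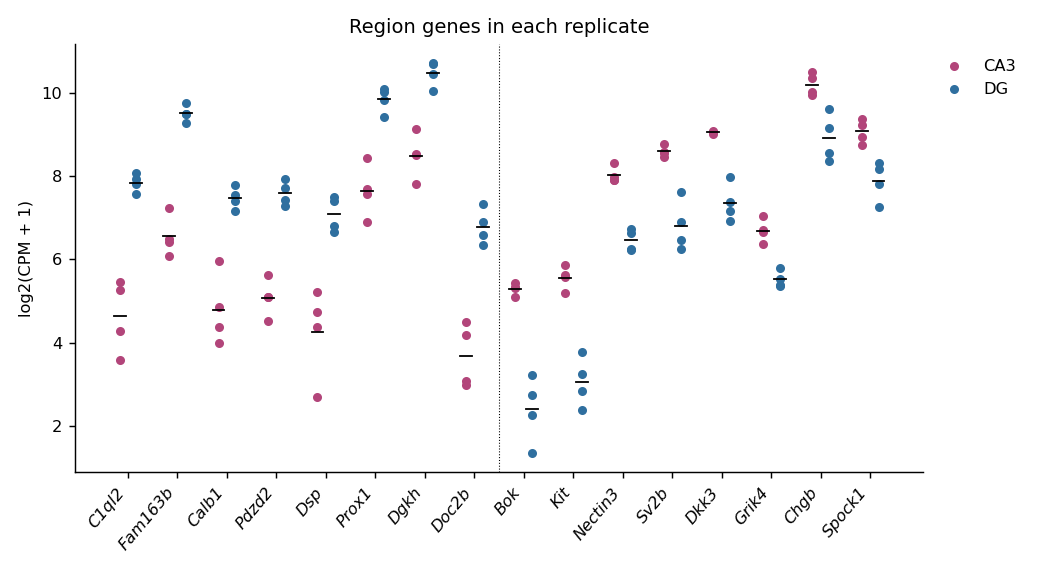
Level of 16 genes in log2(CPM + 1) (vertical axis) in each of the 4 CA3 and 4 DG replicates (1 point per replicate, bars at the group mean), with 8 genes higher in DG left of the dotted line and 8 higher in CA3 right of it. In each of the 16 genes, some of which were chosen for it, the 4 CA3 replicates do not overlap the 4 DG replicates, as in 14.3% of all genes tested, and Dkk3 spans only 518 to 541 CPM in CA3.

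Mossy fibre boutons belong to granule cells and their targets to CA3 neurons, so genes of this synapse were followed on both sides. Of 20 mossy fibre synapse genes, 6 were higher in DG (C1ql2, Pdyn, C1ql3, Penk, Slc30a3 and Syt7) and 4 were higher in CA3 (Nectin3, Grik4, Neto1 and Gpr158), with a median of -0.07. Those higher in DG are known as secreted C1q-like proteins, opioid peptide precursors, the vesicular zinc transporter and a vesicle calcium sensor of the presynaptic side. Those higher in CA3 are known from the postsynaptic side as an adhesion molecule, a kainate receptor subunit, its auxiliary subunit and an orphan receptor. Pdyn, the dynorphin precursor, was at 4.10 to 5.35 CPM in CA3 and at 14.2, 13.96, 33.0 and 8.37 CPM in DG (-1.99 ± 0.46, adjusted p = 0.00502), with DG replicate 3 the highest. It was not called without DG replicate 3 (adjusted p = 0.139), and Penk was not called without DG replicate 1 (adjusted p = 0.0584) and Gpr158 not without DG replicate 2 (adjusted p = 0.0511). Bdnf, a growth factor, was at 0.21 ± 0.16 and was not called.

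Genes of vesicle release split by region within families. Of 59 synaptic vesicle and exocytosis genes, 7 were higher in CA3 and 10 higher in DG (15 and 12 with the replicate block). Among the SV2 glycoproteins of the vesicle membrane, Sv2b was higher in CA3 (1.74 ± 0.20) and Sv2c lower (-2.58 ± 0.39) (adjusted p = 2.03e-06 and 7.42e-05). Doc2b, a calcium sensor of spontaneous release, was at 17.2, 21.4, 7.41 and 6.84 CPM in CA3 and at 119, 80.7, 95.2 and 159 CPM in DG (-2.95 ± 0.30, adjusted p = 3.01e-07). The synaptotagmins Syt9 and Syt17 were also lower in CA3 (-2.80 ± 0.43 and -2.33 ± 0.38), whereas Syn1 and Rims1, which act in vesicle clustering and at the active zone, were 0.63 ± 0.14 and 0.54 ± 0.13 higher. Syt9 was at 4.19 CPM in DG replicate 4 and at 40.3 to 104 CPM in the other DG replicates.

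Receptor genes moved in few members. Of 7 kainate receptor genes, Grik4, Neto1 (1.15 ± 0.23) and Neto2 (0.72 ± 0.19) were higher in CA3 and 0 were higher in DG. Neto2 was not called without CA3 replicate 4 or DG replicate 2 (adjusted p = 0.0572 and 0.088). Of 20 AMPA and NMDA receptor genes, 0 were higher in CA3 and 6 higher in DG, among them the auxiliary subunits Cnih3 (-1.98 ± 0.26, adjusted p = 9.63e-06) and Shisa9 (-1.27 ± 0.27, adjusted p = 0.00299). Without the 2 shallowest DG replicates 3 of the AMPA and NMDA genes were higher in DG. Of 7 metabotropic glutamate receptor genes, Grm3 was higher in CA3 (0.96 ± 0.19) and Grm2, a presynaptic receptor of mossy fibres, was lower (-1.22 ± 0.35, adjusted p = 0.0239). Grm2 was not called without CA3 replicate 3 or 4 or DG replicate 2 or 4 (adjusted p = 0.0541 to 0.177). Of 12 GABA-A receptor genes, Gabrb1 was higher in CA3 (not without CA3 replicate 3, adjusted p = 0.0556). Of 29 neuromodulator receptor genes, Chrm3 (1.11 ± 0.19) and Adora1 (1.05 ± 0.15) were higher in CA3 and the neuropeptide Y receptors Npy1r (-1.68 ± 0.35) and Npy5r (-2.66 ± 0.41) were higher in DG. Of 7 corticosteroid receptor genes 0 were called in either direction (1 higher in CA3 with the replicate block). Of 25 neuropeptide and secreted signal genes, 2 were higher in CA3, Chgb and Scg5, and 7 were higher in DG, among them the neurotrophin Ntf3 (-2.46 ± 0.40, adjusted p = 1.44e-04). After thinning 2 and 2 were called.

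Among ion channels, 8 of 64 potassium channel genes were higher in CA3 and 10 higher in DG (11 and 15 with the replicate block, 3 and 10 without the 2 shallowest DG replicates, 3 and 6 after thinning). Kcnq5, a subunit of the M current, was 2.06 ± 0.27 higher in CA3, while Kcnc4 and Kcnj4 were lower (-1.87 ± 0.27 and -1.73 ± 0.25). Of 29 calcium, sodium and HCN channel genes, 6 were higher in CA3, among them Cacna2d3 (0.90 ± 0.17) and Cacna1a (0.54 ± 0.13), and 2 were higher in DG, Cacna2d2 (-1.26 ± 0.25) and Scn3a (-1.08 ± 0.18). With the replicate block the counts were 10 and 3. Of 28 calcium sensor and kinase genes, 5 were higher in CA3, among them Hpca and Camk4 (1.21 ± 0.16), and 6 higher in DG, among them Calb1 and Camk2b (-0.67 ± 0.13). The block called 5 and 11 of them, and after thinning 2 and 7 were called.

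Surface and matrix genes were called in both directions. Of 62 axon guidance genes, 13 were higher in CA3, among them Plxna1 (1.39 ± 0.17), Sema3e (1.30 ± 0.21) and Robo1 (1.09 ± 0.17), and 7 were higher in DG, among them Epha7 (-0.86 ± 0.13). After thinning to one total 6 and 4 were called. Of 49 cadherins and protocadherins, 4 were higher in CA3, among them Pcdh9 (0.87 ± 0.18), and 3 higher in DG, among them Pcdh17 (-1.20 ± 0.17) and Cdh3 (18 UMIs in DG and 2 in CA3, a ratio of 15.2 in CPM with a 95% counting interval of 3.63 to 134.7). Of 56 collagen, laminin and matrix genes, 6 were higher in CA3, among them Hapln4 (1.57 ± 0.18), a link protein of perineuronal nets, and 3 higher in DG, among them Col25a1 (-1.02 ± 0.19).

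Of 32 transcription factors of hippocampal neurons, 8 were higher in DG and 2 higher in CA3 (13 and 5 with the replicate block). Those higher in CA3 were Neurod6 and Meis2, a homeodomain factor (1.73 ± 0.31, adjusted p = 4.27e-04). Besides Prox1 and Bcl11b, those higher in DG included Rfx3 (-1.80 ± 0.19, adjusted p = 7.45e-07) and Mef2c (-0.85 ± 0.20, adjusted p = 0.00587). Of 20 immediate early genes, Egr3 was higher in CA3 (0.88 ± 0.28, adjusted p = 0.0439) and Jun higher in DG (-1.13 ± 0.18, adjusted p = 1.16e-04), and the block called 4 and 2. Egr3 was not called without CA3 replicate 2, 3 or 4 or DG replicate 1, 2 or 4 (adjusted p = 0.0608 to 0.146).

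Oligodendrocytes, the cells that wrap axons in myelin, were represented by 11 markers tested, all of them higher in CA3, with a median of 1.498. All 11 were also called with the replicate block, after thinning and without the 2 shallowest DG replicates. Mal, a proteolipid of myelin, was at 328, 379, 502 and 312 CPM in CA3 and at 85.2, 74.5, 80.0 and 50.2 CPM in DG. Mbp, myelin basic protein, was at 3197, 2555, 3157 and 3913 CPM in CA3 and at 2643, 1627, 1562 and 1951 CPM in DG. Mal did not overlap between the regions, whereas DG replicate 1 lay above CA3 replicate 2 for Mbp. The log2 fold changes were 2.38 ± 0.19 and 0.75 ± 0.16 (adjusted p = 6.62e-09 and 0.00215). Over all alternatives Mal ran from 2.229 to 2.474 and Mbp from 0.649 to 1.301, both called in each. A count of different tags is capped near 4096 per gene and replicate. A correction for repeated tags was among the alternatives, and Mbp stayed called higher in CA3 with it. The overlap of Mbp and the sums that include Mbp were not computed from corrected counts, so the part of the cap in them was not tested. Summed over the 11 markers the level was 8294 to 11960 CPM in CA3, 3794 to 6185 CPM in DG and 10810 to 21190 CPM in CA1.

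Other glial and vascular markers were called in few members. Of 5 oligodendrocyte precursor markers tested, Sox10, which mature oligodendrocytes also express, was higher in CA3 (0.93 ± 0.21). Of 11 astrocyte markers, the water channel Aqp4 (-0.69 ± 0.14, adjusted p = 0.00182) and the glutamate transporter Slc1a3 (-0.47 ± 0.14, adjusted p = 0.0323) were higher in DG and S100b, which some oligodendrocytes also express, was higher in CA3 (0.79 ± 0.19, adjusted p = 0.00676). Slc1a3 was not called without CA3 replicate 1, 2 or 3 or DG replicate 3 or 4 (adjusted p = 0.0674 to 0.151). It also lost its call without the 2 shallowest DG replicates, after the correction for repeated UMIs and with CA1 replicates in the fit. Summed astrocyte markers were at 4365 to 4986 CPM in CA3 and at 4635 to 6075 CPM in DG, which overlap. Of 10 microglia markers 0 were called in edgeR's test (summed level 202 to 287 CPM in CA3 and 180 to 247 CPM in DG), against 1 with the replicate block. Of 12 endothelial and mural markers, only Acta2, smooth muscle actin, was called, higher in DG (-1.31 ± 0.27, adjusted p = 0.00167). Of 4 ependymal and 3 erythrocyte markers tested 0 were called (0 and 1 with the block).

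Markers of tissue next to the hippocampus differed between single replicates. The choroid plexus markers summed to 52.0 to 390 CPM in CA3 and to 92.7 to 2384 CPM in DG, where Ttr alone was at 2300 CPM in DG replicate 2 and at 44.4 to 251 CPM in the other 3 (adjusted p = 0.152, or 1.58e-05 with the replicate block). Of 5 choroid plexus markers tested, Otx2 and Prlr were called higher in DG (adjusted p = 0.0408 and 0.0228). Otx2 was not called without CA3 replicate 1, 2 or 4 or DG replicate 2 or 3 (adjusted p = 0.0668 to 0.37), and Prlr not without CA3 replicate 3 or 4 or DG replicate 2 (adjusted p = 0.0568 to 0.203). Of 11 thalamus and habenula markers tested, Zic1 (-1.44 ± 0.23) and Zic4 (-2.23 ± 0.36) were higher in DG (adjusted p = 1.29e-04 and 1.47e-04) and Prkcd was higher in CA3 (0.77 ± 0.24, adjusted p = 0.0407). Prkcd was not called without CA3 replicate 2, 3 or 4 or DG replicate 2, 3 or 4 (adjusted p = 0.0734 to 0.153). The part of tissue next to the outlined regions in these differences was not tested.

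**Figure D3:**
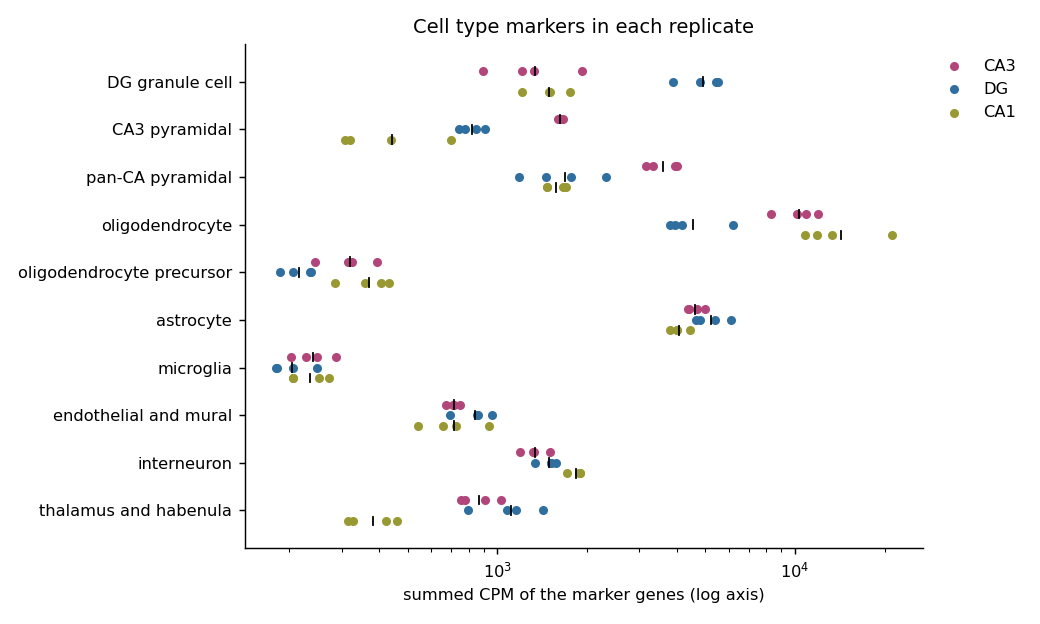
Summed level of the marker genes of 10 cell types or regions in CPM on a log axis (horizontal axis) in each replicate of CA3, DG and CA1 of HCl-permeabilized fresh-frozen sections (1 point per replicate, bars at the group mean). Oligodendrocyte sums are at 8294 to 11960 CPM in CA3 and at 3794 to 6185 CPM in DG, while astrocyte and microglia sums of the regions overlap.

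DG holds dividing progenitors and young neurons, and of 14 adult neurogenesis genes tested 4 were higher in DG and 0 were higher in CA3, with a median of -0.16. Mki67, a protein of dividing cells, was at 5.47 to 15.0 CPM in CA3 and at 19.9 to 31.0 CPM in DG (-1.26 ± 0.36, adjusted p = 0.0228). It was not called without CA3 replicate 3 or 4 or DG replicate 2 or 3 (adjusted p = 0.0586 to 0.0981). Neurod1 (-1.0 ± 0.22, adjusted p = 0.00365) and Sox11 (-0.89 ± 0.22, adjusted p = 0.00943), factors of young neurons, were not called without DG replicate 3 (adjusted p = 0.0582 and 0.0951). Of 5 hilar mossy cell markers tested, Calb2 was higher in DG (-1.62 ± 0.30) and Ajap1 higher in CA3 (0.66 ± 0.18), the latter not without CA3 replicate 2 or DG replicate 3 (adjusted p = 0.0794 and 0.0519). Of 14 interneuron markers, Calb2 and Gad1 were higher in DG, Gad1 at -0.62 ± 0.17 (adjusted p = 0.0188). Gad1 was not called without CA3 replicate 1 or 3 or DG replicate 1 or 4 (adjusted p = 0.0506 to 0.0936).

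The fourth neurogenesis gene was Tac2, the neurokinin B precursor, and several of the largest differences on the DG side were of genes best known from the medial habenula. Tac2 was at 2.47 to 6.84 CPM in CA3 and at 11.4, 66.7, 82.5 and 8.37 CPM in DG (-3.52 ± 0.52, adjusted p = 5.47e-05). Pou4f1, a POU factor of habenular and sensory neurons (chromosome 14, 104461676 to 104467999, minus strand), had 0, 2, 0 and 0 UMIs in CA3 and 11, 21, 58 and 2 UMIs in DG, a ratio of 77.5 in CPM (95% counting interval 20.8 to 649, adjusted p = 2.53e-06). Chrna3, a nicotinic receptor subunit, was at 1.07 to 2.47 CPM in CA3 and at 22.7, 32.6, 59.7 and 8.37 CPM in DG (-4.16 ± 0.53, adjusted p = 6.73e-06). DG replicate 3 was the highest for all 3 genes and the DG replicates spread over 7-fold or more, yet each gene was called without any 1 replicate.

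A list of 13 such habenular genes was drawn up after their values were seen, and 11 of the 12 tested were higher in DG, or 5 after thinning. They included Chat, Slc18a3 and Slc5a7, the enzyme and transporters of cholinergic neurons. Chat had 1 UMI in CA3, in replicate 3, and 2, 6, 32 and 0 UMIs in DG (ratio 67.4, 95% counting interval 11.4 to 2726). Slc18a3 had 0 UMIs in CA3 and 14 in DG, at least 7.86-fold higher against a floor of 3 counts over the 4 CA3 replicates. Nwd2 was not called (adjusted p = 0.0542, called with the replicate block). In CA1 Pou4f1 was at 0 to 2.74 CPM and Tac2 at 0 to 6.84 CPM, whereas Chrna3 was at 16.4 to 21.9 CPM in 3 of 4 replicates. In the separate TE-permeabilized sections Pou4f1 was at 10.2 to 40.9 CPM in DG and at 0 to 2.70 CPM in CA3. The source of these transcripts was not tested.

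Genes of the neuronal cytoskeleton were called on 1 side only. Of 22 genes of the cytoskeleton of large axons, 10 were higher in CA3 and 0 were higher in DG, with a median of 0.54. Examples are the tubulin Tubb4a (1.40 ± 0.21), the neurofilaments Nefm (1.07 ± 0.18) and Nefl (0.72 ± 0.14), and Stmn2, a regulator of microtubules (1.04 ± 0.16), with adjusted p-values between 6.48e-05 and 8.69e-04. The counts were 13 and 2 with the replicate block, and 5 and 1 without the 2 shallowest DG replicates. Oligodendrocytes also express Tubb4a, and oligodendrocyte markers were higher in the same CA3 replicates. The part of oligodendrocytes in this list was not tested.

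Genes of energy metabolism had log2 fold changes mostly above 0 with HCl. Over all genes tested, 4.46% were called higher in CA3 and 8.99% in either direction. Of 16 glycolytic enzyme genes, 7 were higher in CA3 and 0 were higher in DG (11 and 0 with the block), with a median of 0.58. Gapdh, glyceraldehyde-3-phosphate dehydrogenase and a common reference gene, was at 34.3, 156, 60.5 and 21.9 CPM in CA3 and at 5.68, 13.96, 5.08 and 4.19 CPM in DG. Replicate 2 was the highest in both regions, the regions did not overlap, and the log2 fold change was 3.14 ± 0.56 (adjusted p = 4.31e-04). In DG replicates 1 and 4 Gapdh lay below the level of 3 UMIs, 8.515 and 12.56 CPM, so few UMIs stand behind these values. Pkm and Hk1 differed by 0.65 ± 0.15 and 0.66 ± 0.16, and Hk1 was not called without DG replicate 2 (adjusted p = 0.051). Of 80 nuclear genes of the respiratory chain, 8 were higher in CA3 and 0 were higher in DG, and 70 had a log2 fold change above 0 (median 0.38). Cox8a led them by its adjusted p (1.16 ± 0.16, adjusted p = 1.60e-05). With the replicate block 23 were called, all higher in CA3. Of 35 proteasome genes, 3 were higher in CA3 and 1 higher in DG, against 0 and 0 after thinning and 2 and 0 without the 2 shallowest DG replicates. Of 9 nuclear-retained long noncoding RNAs, Rian was higher in CA3 (0.95 ± 0.22) and Miat higher in DG (-1.25 ± 0.18).

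Genes of cytosolic ribosomal proteins, which encode the protein shell of the ribosome, were called in CA3 only. Of 76 tested, 20 were higher in CA3 and 0 were higher in DG, and 71 had a log2 fold change above 0 (median 0.58). Rps29 was at 195, 173, 169 and 254 CPM in CA3 and at 111, 90.0, 140 and 100.5 CPM in DG, without overlap (0.85 ± 0.18, adjusted p = 0.00266). The count depended on single replicates. It was 11 without CA3 replicate 4, 13 without DG replicate 2, 12 without DG replicates 4 and 1, 12 after thinning and 41, with 1 higher in DG, in the replicate block. Summed over the list the level was 6452 to 8865 CPM in CA3 and 5106 to 5838 CPM in DG.

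TE-permeabilized fresh-frozen sections, heated to 70 °C for 1 h in place of Triton X-100 and HCl, gave the same comparison in replicates of their own. There 1138 of 14386 genes were called (7.91%), 626 higher in CA3 (4.35%) and 512 higher in DG (3.56%). Of the 1342 genes called with HCl that were also tested with TE, 1273 (94.9%) had the same sign, against 68.2% of all 14047 genes tested in both, 676 were called in the same direction and 2 in the opposite one. The same sign was seen for 85.8% of 1145 genes in fixed frozen sections and for 83.3% of 1179 in paraffin sections, against 63.0% and 61.4% of all genes tested in both. Granule cell markers had medians of -1.85 with HCl and -1.66 with TE, and oligodendrocyte markers 1.498 and 1.59, again with all 11 called. Prox1 and Dkk3 were at -2.38 ± 0.15 and 1.77 ± 0.17 with TE. For C1ql2 the interaction of region and permeabilization was 0.15 ± 0.38 on the log2 scale (adjusted p = 1).

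The ribosomal protein genes lay on the other side of 0 with TE. There 0 of the 76 were higher in CA3 and 2 were higher in DG, and the median was -0.15. The interaction term was above 0, that is, towards CA3 with HCl, for 70 of the 76 with a median of 0.81, and 1 of them, Rps29, was called (1.12 ± 0.24, adjusted p = 0.0474). The summed level was 6957 to 8301 CPM in CA3 and 8269 to 10980 CPM in DG with TE, so that the DG replicates with HCl were the lowest of the 4 groups. For respiratory chain genes the median went from 0.38 with HCl to 0.09 with TE, where 2 were higher in CA3, and for glycolytic genes from 0.58 to 0.43, where 5 were higher in CA3 and 0 higher in DG. Gapdh was at 1.90 ± 0.42 with TE (adjusted p = 0.0034), and its difference between the conditions was not called (adjusted p = 0.99).

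**Figure D4:**
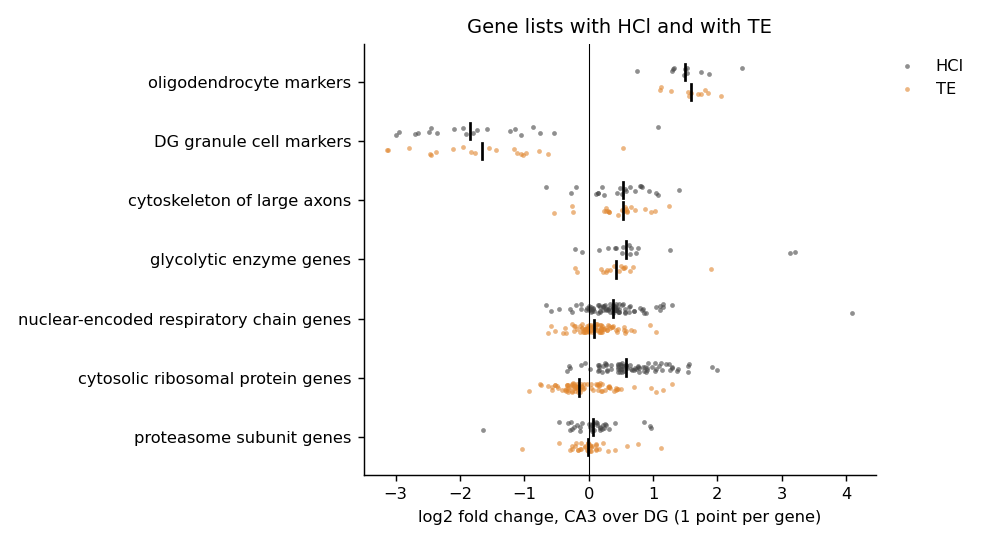
Log2 fold change of CA3 over DG (horizontal axis) of the genes of 7 lists, 1 point per gene, with HCl (grey) and with TE (orange) and bars at the medians. Ribosomal protein genes have a median of 0.58 with HCl and -0.15 with TE, oligodendrocyte markers 1.498 and 1.59, and the point at 4.10 among the respiratory chain genes is Atp5g2, which had 10 UMIs in CA3, 0 in DG and was not called.

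Of 14 mitochondrially encoded genes tested, 8 were higher in CA3 and 1 higher in DG with HCl, with a median of 0.92, against 0 and 1 with TE and a median of -0.20. After thinning 5 were higher in CA3 with HCl. Their summed level overlapped, at 22840 to 28130 CPM in CA3 and 20470 to 30810 CPM in DG. The sums include mt-Rnr2, whose counts in CA3 reached the cap of 4096 tags, and the part of this cap in the overlap was not tested. The interaction was above 0 for 14 of 14 and called for mt-Co1 and mt-Nd5. The cytochrome oxidase gene mt-Co1 was at 684, 761, 861.7 and 732 CPM in CA3 and at 289.5, 279, 406 and 239 CPM in DG with HCl (1.33 ± 0.15, adjusted p = 1.77e-06), and at 1001 to 1594 CPM in CA3 and 1163 to 1499 CPM in DG with TE. The DG replicates with HCl were the lowest of these 4 groups. The NADH dehydrogenase genes mt-Nd1 and mt-Nd4 were at 0.10 ± 0.15 and -0.20 ± 0.16 and were not called. After the correction for repeated tags, or without the 2 shallowest DG replicates, mt-Nd1 was called. Over all alternatives mt-Nd1 ran from -0.013 to 0.7 and mt-Nd4, not called in any, from -0.32 to 0.375. The 16S ribosomal RNA mt-Rnr2 was at 4460 to 5607 CPM in CA3 and at 5049 to 10700 CPM in DG and was called higher in DG (-0.61 ± 0.17, adjusted p = 0.023). It was not called without CA3 replicate 1, 2 or 3 or DG replicate 1 or 4 (adjusted p = 0.0561 to 0.147), nor without the 2 shallowest DG replicates. Its counts were 4100 to 4211 in CA3 and 2557 to 3978 in DG, where UMIs of 6 bases allow 4096 different tags. A correction for repeated tags cannot be computed above that number and set every CA3 count to the same ceiling value. With it mt-Rnr2 was called in the other direction, at 1.26, a value that rests on this ceiling and does not measure a difference.

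On the fitted log2 scale, the largest difference of the called genes on the CA3 side whose mean reached 10 UMIs was that of Gm28437, a gene model of chromosome 1 (24613189 to 24613971, minus strand, GRCm38) whose 783 bases are identical to mt-Co3, the gene of cytochrome oxidase subunit 3 (chromosome M, 8607 to 9390). Gm28437 lies in a run of gene models with Gm10925, whose whole transcript is identical to a stretch of mt-Atp6, in a stretch of the nuclear genome known to hold a copy of mitochondrial DNA. The last 30 aligned bases of the transcripts, read from GENCODE M21, do not by themselves tell the copies of a pair apart. The reads were not examined. They are printed 5′ to 3′ with no capitals, because no base differs within a pair.
Gm28437: ctatacgtctccatttattgatgaggatct
mt-Co3: ctatacgtctccatttattgatgaggatct
Gm10925: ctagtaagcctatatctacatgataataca
mt-Atp6: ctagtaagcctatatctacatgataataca

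Gm28437 was at 1693, 1288, 1323 and 2091 CPM in CA3 and at 25.6, 10.9, 35.5 and 16.7 CPM in DG, a log2 fold change of 6.12 ± 0.25 (adjusted p = 6.62e-15). CA1 of the same condition was at 2176 to 3961 CPM. With TE the CA3 replicates were at 2039 to 3207 CPM and the DG replicates at 1589 to 2564 CPM (0.35 ± 0.17), so that only the DG replicates with HCl were low. The interaction was 5.77 ± 0.31 (adjusted p = 6.40e-16). The mitochondrial gene itself, mt-Co3, was at 24.7, 32.1, 20.99 and 53.3 CPM in CA3 and at 19.9, 12.4, 8.88 and 4.19 CPM in DG, a smaller difference of 1.51 ± 0.39 (adjusted p = 0.0116). It was not called without CA3 replicate 4 or DG replicate 3 (adjusted p = 0.0501 and 0.0648). The sum of the pair ran from 1320 to 2144 CPM in CA3 and from 20.9 to 45.4 CPM in DG.

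Of 9 nuclear gene models that shared at least 50% of their 20-base words with a mitochondrial gene, 8 were tested and 7 were higher in CA3. Gm10925 was at 5.49 ± 0.31 with HCl and 1.89 ± 0.19 with TE, and Gm28661, a copy of mt-Co2 with 681 of 681 bases, at 1.77 ± 0.23 and -0.18. Gm29216, which matches mt-Co1 in 486 of 492 bases, was higher in CA3 in both conditions, at 3.66 ± 0.24 with HCl and 5.36 ± 0.21 with TE. It differs from mt-Co1 by T1056A, C1057T, A1059G, A1060G, C1062A and A1066T, counted from the first base of mt-Co1 with the base of mt-Co1 first, and its last 30 bases are identical to those of mt-Co1. Gm13341 on chromosome 2 was at 0.13 ± 0.19 with HCl, where it was not called, and at 2.79 ± 0.19 with TE. The paper prints its featureCounts command, which sets no option for reads that map to several places, but not its HISAT2 settings. How reads of identical copies were placed was not tested, and values of these genes are uncertain for that reason.

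**Figure D5:**
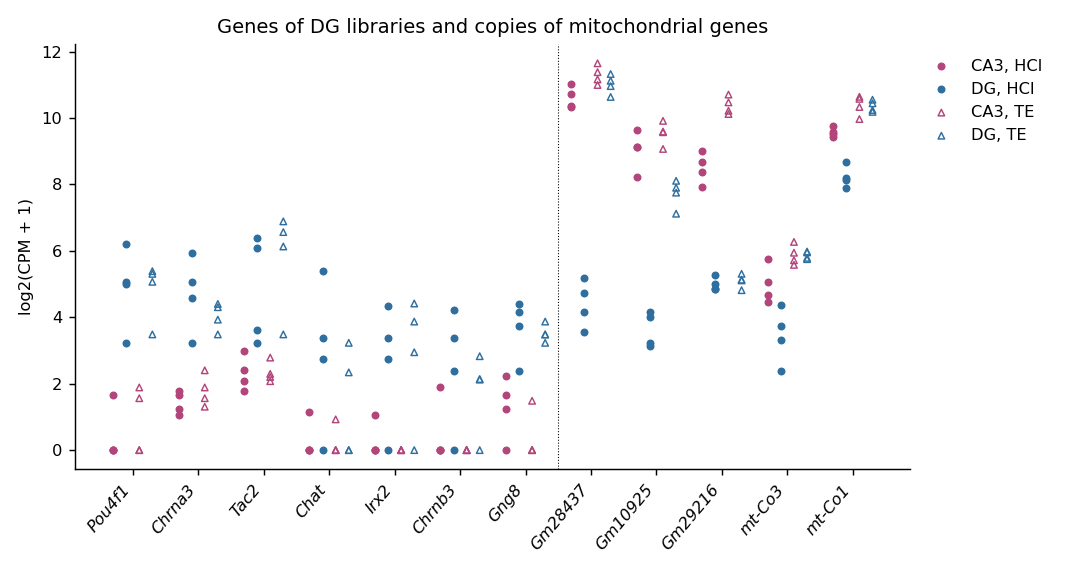
Level in log2(CPM + 1) (vertical axis) of 7 habenular genes and of 5 genes from the mitochondrial genome or its nuclear copies, in each replicate of CA3 and DG with HCl (filled circles) and with TE (open triangles). Pou4f1 and Tac2 are higher in DG in both conditions, while Gm28437 is low only in the 4 DG replicates with HCl, at 10.9 to 35.5 CPM.

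A group of gene models at the first bases of chromosome 9, where satellite repeats adjoin, was also higher in CA3 with HCl. Gm10722 (chromosome 9, 3000922 to 3002330, plus strand) was at 165, 227, 167 and 205 CPM in CA3 and at 8.52, 13.96, 13.96 and 25.1 CPM in DG (3.74 ± 0.25, adjusted p = 1.75e-10). With TE it was at 7.51 to 21.6 CPM in CA3 and at 23.5 to 34.0 CPM in DG, and the interaction was 4.87 ± 0.43 (adjusted p = 1.05e-09). Here the CA3 replicates with HCl stood apart from the other 3 groups, and CA1 with HCl was at 275 to 1053 CPM. In a list of 5 such models drawn up after their values were seen, Gm11168 (3.24 ± 0.48), Gm10719 (2.52 ± 0.36) and Gm10800 of chromosome 2 (1.27 ± 0.13) were also higher in CA3. Gm10721 had 42 UMIs in CA3 and 0 in DG, at least 8.31-fold higher in CA3.

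The interaction test over both fresh-frozen conditions called 17 of 16729 genes (0.102%), 13 with a larger and 4 with a smaller log2 fold change of CA3 over DG with HCl, and 890 genes had an unadjusted p under 0.05. The count ran from 10 without DG replicate 4 with HCl to 21 without CA3 replicate 2 with HCl, and was 120 with the replicate block. Besides copies of mitochondrial genes, Gm10722 and Rps29 they included Qk, an RNA-binding protein of glia and neurons, at 1.22 ± 0.15 with HCl and 0.16 ± 0.15 with TE (adjusted p = 0.0204). Arf3, a small GTPase of vesicle traffic, was at -0.62 ± 0.15 with HCl and 0.64 ± 0.17 with TE (adjusted p = 0.011), called in opposite directions in the 2 conditions. With HCl, Arf3 was not called without CA3 replicate 3 or DG replicate 1 (adjusted p = 0.0607 and 0.0695).

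Some genes were seen in 1 region only, or nearly so. Rps2-ps6, a processed pseudogene (chromosome 14, 76236691 to 76237545, minus strand), had 31 UMIs in CA3 and 0 in DG, at least 6.14-fold higher in CA3. Gm5741 (chromosome 8, 85067568 to 85067982, minus strand) had 0 UMIs in CA3 and 3, 12, 31 and 0 UMIs in DG, at least 25.8-fold higher in DG, with DG replicate 3 again the highest. The gene ENSMUSG00000095552, which has no symbol or position in the annotation used here, had 3 UMIs in CA3 and 154 in DG, a ratio of 86.4 (95% counting interval 29.0 to 424). With TE this gene had 0 UMIs in all 4 DG replicates.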

How the data were processed

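PIC with CEL-seq2 had been run on 12 samples of 4 replicates each, and the 4 CA3 and 4 DG replicates of fresh-frozen, HCl-permeabilized sections were compared, with the other conditions as separate replicates. The table deposited by the authors holds raw UMI counts of 32546 genes in 48 columns, none of them scaled, and each column could be assigned to a replicate. Per the labels and the paper, the authors aligned reads to GRCm38 with HISAT2 2.1.0, assigned them with featureCounts 1.6.4 and counted different UMIs of 6 bases with UMI-tools 1.0.0, which caps a count near 4096. The release of their annotation is not given in the sources used here. Positions and transcript sequences came from GENCODE M21 (GRCm38), which held 32530 of the genes, and 773 genes that have no symbol appear under their identifiers.

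CA3 was tested against DG by the quasi-likelihood method of edgeR 4.0.16 in R 4.3.3 on the counts, scaled by TMM, for every gene that reached 10 UMIs in the 8 replicates together, with Benjamini-Hochberg adjustment over all genes tested. The interaction of region and permeabilization was fitted on 16 replicates. CPM are UMIs divided by the replicate total. Single comparisons of 4 against 4 used two-sided exact permutation tests (scipy 1.17.1). Genes with 0 UMIs in a region were set against a floor of 3 counts over its 4 replicates, and genes with 1 to 3 UMIs are given as a ratio with an exact 95% binomial interval. Floors and intervals cover counting error only. The test was tried on simulated counts first. Python 3.11.15 with numpy 2.4.6, pandas 2.3.3 and matplotlib 3.10.9 was used for summaries.

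Replicates with the same number deviated together from their group means (r = 0.228, 0.433, 0.333 and 0.273 for numbers 1 to 4 across 10016 genes, and 0.16 to 0.259 after thinning), and the pairing rests on this check and on the numbers in the column names. Some different numbers also correlated, up to 0.205 for CA3 replicate 1 with DG replicate 4, which after thinning (0.165) passed the 0.16 of number 1. The fit without the block is the one reported, and the block is given beside a result where it changed a call or moved a count by over 1.5 times. Alternatives were DESeq2 1.42.0, its size factors in edgeR, scaling by total UMIs, no filter, filterByExpr, thinning to 238861 UMIs (with the block or without), a correction for repeated UMIs, CA1 replicates in the fit and leaving out each replicate. Leaving out the 2 shallowest replicates was chosen after seeing the data.

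The comparison and its 41 gene lists were chosen with earlier results of these data known, and no set test was made. Named genes are members of the lists, Gapdh and Pdzd2, and, among called genes averaging 10 UMIs or more with no overlap between regions, the 12 largest log2 fold changes, 5 smallest adjusted p-values and 5 largest CPM differences in each direction, genes of the interaction test, and genes at 0 UMIs in 1 region. Habenular genes, satellite-like genes and nuclear copies of mitochondrial genes were grouped after their values were seen. Some list members are not reported here by name.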

Additional observations from a re-analysis of the deposited data

Results flagged for a closer look

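Among the 64 groups of 4 replicates whose totals or levels are given, 6 held a replicate apart from the other 3 by Dixon's criterion, where chance gives about 1 in 20. Nectin3 was at 319.7 CPM in CA3 replicate 3 and at 238 to 251.6 CPM in the other CA3 replicates. Pou4f1 was at 2.142 CPM in CA3 replicate 2, from 2 UMIs, and Chat at 1.235 CPM in CA3 replicate 3, from 1 UMI, with 0 in the others. Gapdh was at 13.96 CPM in DG replicate 2 and at 4.187 to 5.677 CPM in the others. Ttr was at 2300 CPM in DG replicate 2 and at 44.4 to 251.2 CPM in the others. Ociad2 was at 173.1 CPM in DG replicate 1 and at 87.9 to 93.9 CPM in the others.

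For 16 genes that averaged 10 UMIs or more, the log2 fold change of CA3 over DG differed between HCl and TE in the interaction test. It was larger with HCl for the copies of mitochondrial genes Gm28437 (by 5.77), Gm10925 (by 3.60) and Gm28661 (by 1.95), for mt-Co1 (by 1.24) and mt-Nd5 (by 0.95), and for Gm10722 at the start of chromosome 9 (by 4.87). It was also larger for the ribosomal protein gene Rps29 (by 1.12), Rpl37rt, a retrotransposed copy of a ribosomal protein gene (by 2.85), Wdr89 (by 2.14), Gm44560 (by 2.60), Gm11942 (by 1.31) and Qk (by 1.06). It was smaller with HCl for Gm13341 (-2.65), Gm29216 (-1.70), Ccdc149 (-1.80) and Arf3 (-1.25). Rpl37rt was at -1.19 with HCl and -4.04 with TE, and Wdr89 at 0.06 and -2.08, so that DG was the higher side with TE. What these 16 genes share was not tested.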

How the results depend on the processing

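The 1363 genes called became 2619 (1353 higher in CA3, 1266 higher in DG) in the replicate block and 817 (390, 427) after thinning to one total. They ranged from 1027 without DG replicate 2 to 1297 without DG replicate 1. DESeq2 called 1080. No alternative called a gene of the 1363 in the opposite direction except the correction for repeated UMIs, with 1, mt-Rnr2, which went from -0.61 to 1.26. That reversal rests on the ceiling to which the correction set every CA3 count of this gene. The 20 ribosomal protein genes became 41 in the replicate block, 12 after thinning, 12 without the 2 shallowest replicates and 11 to 24 without single replicates. The 17 interaction genes (13 larger, 4 smaller with HCl) became 38 (31, 7) with no filter, 120 (67, 53) in the replicate block and 43 (31, 12) in the block on thinned counts, filterByExpr left 2 smaller ones, and single left-out replicates gave 10 to 21 in all and 1 to 5 smaller. Apart from thinning itself, which leaves fewer UMIs, the cause of these changes was not tested. Of 181 genes named with values, 51 had a call that changed in some of 19 alternatives, most often to not called. In the replicate block no list lost a call on either side. Besides the counts in the text it moved these (CA3, DG): CA1 markers 2, 3, thalamus and habenula markers 2, 4, AMPA and NMDA receptors 1, 8, metabotropic receptors 2, 1, GABA-A receptors 2, 2, neuropeptides 4, 8, cadherins 6, 6, nuclear-retained noncoding RNAs 2, 1, erythrocyte markers 0, 1, and 1 more on the empty side of the granule cell, CA2, neurogenesis, interneuron and kainate receptor lists. Besides the genes given in the text, it gained Gm11942 and Rpl37rt, and it changed no other call of a gene named with values. Beside the counts in the text, thinning moved these by over 1.5 times: CA1 markers 0, 0, mossy cell 0, 0, neurogenesis 0, 2, interneuron 1, 1, astrocyte 0, 2, choroid plexus 0, 1, thalamus and habenula markers 0, 3, transcription factors 2, 5, kainate receptors 3, 1, AMPA and NMDA receptors 0, 3, GABA-A receptors 0, 1, immediate early genes 0, 1, calcium, sodium and HCN channels 3, 2, cadherins 2, 3, respiratory chain genes 4, 0. Leaving out the 2 shallowest replicates moved CA2 markers to 1, 0, mossy cell markers to 0, 1, astrocyte markers to 1, 1, choroid plexus markers to 0, 1, metabotropic receptors to 1, 0, GABA-A receptors to 2, 1, neuropeptides to 4, 7, corticosteroid receptors to 1, 0, immediate early genes to 1, 3, noncoding RNAs to 0, 1 and mitochondrially encoded genes to 8, 0. Of genes with a mean of 1 to 5 UMIs 1.75% were called, and the part of depth in this was not tested.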

Other observations

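Some genes of the regions had no place above. In DG, Tdo2, which opens the tryptophan ring, was at -2.69 ± 0.43, and Lct, known as intestinal lactase, at -2.35 ± 0.23 (edgeR adjusted p = 1.47e-04 and 2.13e-07). Pitpnm2, a phosphatidylinositol transfer protein, was at 128.6 to 183 CPM in CA3 and at 502 to 602 CPM in DG, without overlap (-1.76 ± 0.15, adjusted p = 1.50e-08).

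The remaining oligodendrocyte markers ranged from Ugt8a, an enzyme of galactolipid synthesis (1.29 ± 0.23), to Opalin (1.86 ± 0.25). Mobp was at 907 to 1428 CPM in CA3 and at 310 to 457 CPM in DG. Hapln2, a link protein of the nodes of Ranvier, had 39 UMIs in CA3 and 3 in DG (ratio 7.72, 95% counting interval 2.45 to 39.1).

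Of the other habenular genes, Irx2 had 23 UMIs in DG and 1 in CA3 (ratio 38.7, 95% counting interval 6.29 to 1595), and Chrnb3 and Chrnb4, which encode nicotinic receptor subunits, had 21 and 20 UMIs in DG and 2 each in CA3. Several ribosomal protein genes had larger differences than Rps29 with HCl, among them Rplp1 (1.27 ± 0.24, adjusted p = 9.95e-04), which was at 17.03 to 54.6 CPM in DG with HCl and at 93.5 to 149 CPM in DG with TE.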
